A study of Mus musculus with 36 samples.

Results

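Pro-B cells that lack the nuclear sirtuin SIRT7 were compared with wild-type pro-B cells by bulk RNA sequencing (RNA-seq), with 2 Sirt7-/- libraries against 2 wild-type libraries. A gene was kept if 2 or more of these 4 libraries reached 10 normalized counts, which left 16701 of the 46078 rows of the table of sorted cells. Of these genes, 15101 reached 10 in all 4 libraries, 854 in 3, 468 in 1 library of each genotype, 144 in both wild-type libraries only and 134 in both Sirt7-/- libraries only. Each library came from 1 mouse, 8 to 16 weeks old and on the 129Sv background, and the same 4 mice gave the pre-B libraries used for comparison. The Sirt7-/- mice carried a germline deletion of Sirt7 exons 4 to 10 in every tissue, the bone marrow stroma included, and wild-type mice carried none. Pro-B cells were sorted from bone marrow as IgM-CD43+ cells of the B lineage and pre-B cells as their IgM-CD43- counterparts in the study's methods, which state no treatment or culture for them. The growth protocol in the labels of these libraries instead describes pro-B cells kept on OP9 feeder cells with IL-7, and they are treated here as sorted cells, as their titles and the methods have it.

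SIRT7 is an NAD+-dependent deacylase of the nucleus and nucleolus, known for removing acetyl groups from histones and other nuclear proteins and for roles in ribosomal RNA synthesis and DNA repair. Pro-B cells rearrange their immunoglobulin heavy chain genes, divide in response to interleukin 7 (IL-7) and depend on the transcription factor Pax5 for their B lineage identity. Cells that make a functional heavy chain assemble it with the surrogate light chain into the pre-B cell receptor, and then pass to the pre-B stage, where genes such as Il2ra (CD25), Ikzf3 (Aiolos) and Irf4 increase.

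The 4 pro-B libraries held between 54130851 and 55536608 reads, with 7.70% to 8.25% of each library's normalized counts in its 10 most abundant genes. The cell type field of the sample labels names replicate 2 of both genotypes as pre-B cells, whereas the titles and the column names give pro-B, and the stage was taken from the latter. Genes of the pro-B stage stood at their pro-B levels in both replicates: Dntt, the terminal transferase of heavy chain joining, was at 19432 and 26828 in wild-type pro-B cells and at 30149 and 30750 in Sirt7-/- pro-B cells, in normalized counts. Dntt was at 131 and 157 normalized counts in wild-type pre-B cells and at 423 and 3838 in Sirt7-/- pre-B cells. The surrogate light chain gene Igll1 was at 23224 and 22753 in wild-type and 29529 and 24380 in Sirt7-/- pro-B cells. Spn, which encodes the sorting antigen CD43, was present in every library, between 16909 and 21895. Kit, the receptor of early B progenitors, lay between 1529 and 1967. All 4 libraries contained transcripts of the Y-linked gene Eif2s3y, between 2514 and 2769.

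Sirt7-/- replicate 2 stood apart from the other libraries in genes of stress and of other cell types. The 21 immediate early and stress genes summed to 67405, 62001 and 64839 normalized counts in wild-type replicates 1 and 2 and Sirt7-/- replicate 1, and to 235914 in Sirt7-/- replicate 2. Fosb, an AP-1 subunit induced within minutes of a stimulus, was at 102, 40.1 and 99.1 in the former and at 20660 in the latter. The 20 myeloid markers summed to 108332, 74004 and 86196 and to 24260 in that library, led by the neutrophil granule gene Ngp with 50588, 31974, 39827 and 4974. The 14 erythroid and megakaryocyte markers summed to 22876, 18709, 17666 and 54034, with Hba-a1, an alpha globin gene, at 5263, 4194, 3144 and 19328. The 12 NK cell markers summed to 832, 807, 870 and 1866, led by Nkg7 with 210, 204, 252 and 406. T cell markers differed less between libraries: the 22 genes summed to 18649, 18226, 17234 and 17354, mostly through Notch1 with 7367, 6923, 6358 and 6680, while Cd3e was at 18.7, 44.8, 22.0 and 10.1. The 10 stroma markers summed to 723, 583, 483 and 439, with Pdgfrb at 188, 106, 177 and 234. Plasma cell markers were lowest in wild-type replicate 1, where the 12 genes summed to 198974 against 506220, 359559 and 381738 in wild-type replicate 2 and Sirt7-/- replicates 1 and 2, with Igha at 105266, 280258, 130194 and 104981. No marker of these 7 lists was at 0 in all 4 libraries. The part of other cells in the results below was not tested, and in sorted bulk samples fewer cells of a type cannot be told apart from less RNA per cell. For gene lists, the count at an unadjusted p or the median without Sirt7-/- replicate 2 is therefore given where it differs from that with both libraries.

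**Figure D1:**
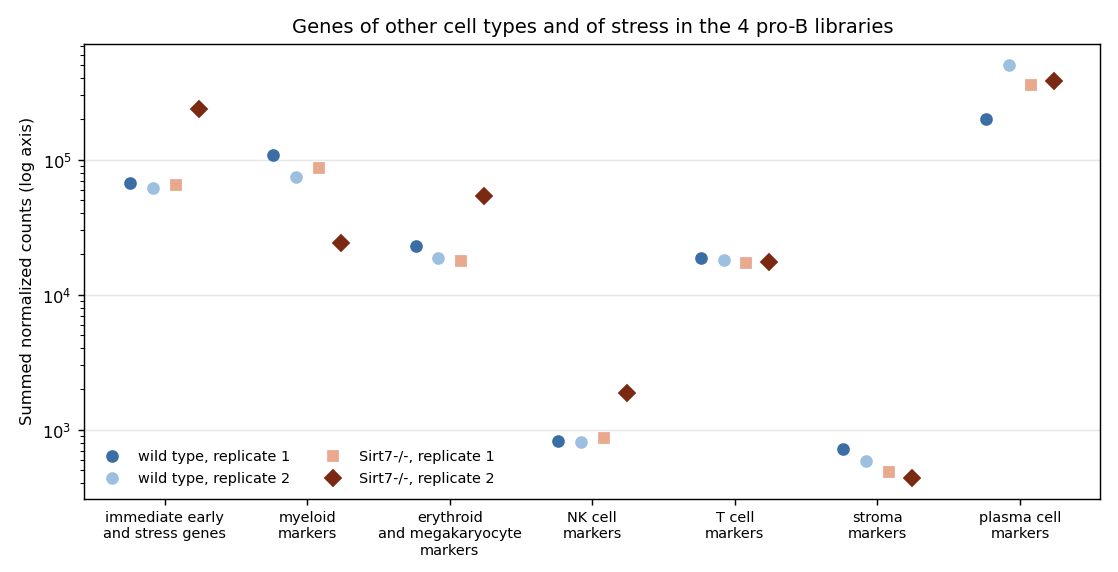
Summed normalized counts (log axis) of 7 lists of stress genes and of markers of other cell types in each of the 4 sorted pro-B libraries, 1 point per library. Sirt7-/- replicate 2 has the highest stress, erythroid and NK sums and the lowest myeloid sum, and wild-type replicate 1 has the lowest plasma cell sum.

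In limma and edgeR few transcripts of pro-B cells differed by genotype beyond the spread between libraries, and DESeq2 called more. Limma on log2(normalized count + 1), with all 4 groups of sorted cells in 1 fit and Benjamini-Hochberg adjustment over all 16701 genes, called 11 genes at an adjusted p under 0.05, which is 0.0659% of those tested, 2 higher and 9 lower in Sirt7-/- cells. Of the 9, Pagr1b and AC107830.1 are among the 144 genes that were kept through the wild-type libraries only and so had to differ, and the other 7 were not kept through 1 genotype alone. The median log2 fold change of all genes was 0.00. EdgeR on the recovered reads called 10 genes (0.0599%), all among the 11, and DESeq2 called 120 of the 15729 genes to which it gave an adjusted p, or 0.763%, 41 higher (0.261%) and 79 lower (0.502%), with all 11 among them. Of these, 3 of the higher and 5 of the lower genes were kept through 1 genotype only. At an unadjusted limma p under 0.05, 363 genes were higher (2.17%) and 635 lower (3.8%), and without Sirt7-/- replicate 2 these were 209 (1.25%) and 469 (2.81%). The limma calls depended on single libraries: all were lost without replicate 1 of either genotype, and some were lost without either replicate 2. Without Sirt7-/- replicate 2 the log2 fold changes were -2.84 for Sirt7, -1.59 for Trim26 and -2.74 for Zfp882. Pagr1b and AC107830.1 are left out here because the filter fixed their difference. With the 4 pro-B libraries alone, limma and edgeR each kept 3 of the 11 calls (Sirt7, Trim26 and Pcyt2), lost the other 8 and called no gene higher. With these libraries DESeq2 kept all 11 and called 254 genes, 106 higher and 148 lower. For a single gene, 2 libraries against 2 cannot give an exact two-sided permutation p below 0.333, so the p-values here come from models that share information across genes. Their error is the spread between 2 mice a group, pooled over the pro-B and the pre-B groups. The median absolute log2 difference between libraries was 0.185 within wild type, 0.191 within Sirt7-/- and 0.195 to 0.241 between the genotypes. In 6652 genes (39.8%) every library of one genotype lay above every library of the other, with the Sirt7-/- libraries higher in 20% of genes and lower in 19.8%. The log2 fold change was above 0 in 50.2% of genes.

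**Figure D2:**
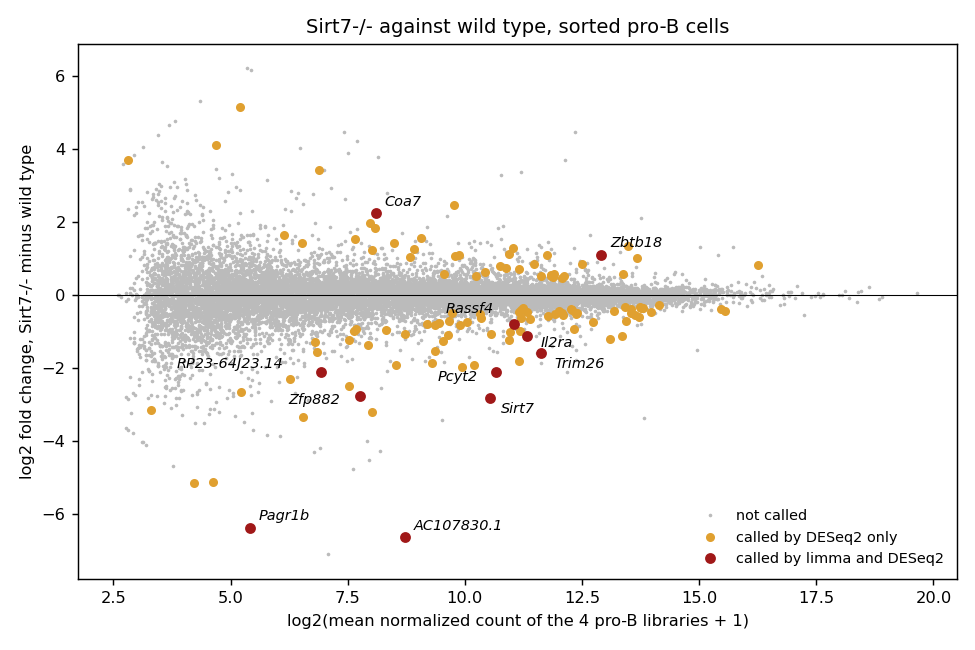
Log2 fold change of Sirt7-/- minus wild-type pro-B cells (vertical axis) against mean expression, as log2 of the mean normalized count of the 4 libraries plus 1 (horizontal axis), 1 point per tested gene. Dark red points are the 11 genes called by both limma and DESeq2, of which 9 lie below 0, and orange points are those called by DESeq2 alone.

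Sirt7 itself was lower in the Sirt7-/- libraries. The gene (chr11:120618372-120625240, minus strand, GRCm38) was at 2692 and 2533 in wild-type pro-B cells and at 363 and 366 in Sirt7-/- pro-B cells, and both Sirt7-/- libraries lay far below both wild-type libraries. Its log2 fold change was -2.84 (SE 0.143, n = 2 against 2, adjusted p = 0.00275 in limma). The table gives 1 value per gene, so that the exons from which the remaining reads came cannot be told. Of the other 6 sirtuin genes none was called. Sirt3, a mitochondrial sirtuin, was at 626 and 588 in wild-type and at 739 and 838 in Sirt7-/- pro-B cells (log2 fold change 0.37, adjusted p = 0.875 in limma). Sirt1 was at 2571 and 2951 and at 1906 and 2871, with a log2 fold change of -0.24, and -0.53 without Sirt7-/- replicate 2. The median of the 7 sirtuin genes was -0.07, and 0.02 without that library, with 1 gene (Sirt7) lower at an unadjusted limma p under 0.05 (3.8% of all genes) and 2 without it (2.81%).

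Trim26 was lower in Sirt7-/- pro-B cells. This gene (chr17:36837134-36859398, plus strand) encodes a tripartite motif protein of the E3 ubiquitin ligase family. It was at 4806 and 4751 normalized counts in wild-type and at 1583 and 1561 in Sirt7-/- pro-B cells, and the 2 libraries of each genotype were nearly equal. The log2 fold change was -1.60 (SE 0.084, adjusted p = 0.00275 in limma). Pax5 binding was measured by chromatin immunoprecipitation (ChIP–seq) in Pax5-/- pro-B cells given wild-type Pax5 by retrovirus, and a peak lay just before the 5′ end of Trim26 in both replicates, with an enrichment of 4.48-fold and 3.75-fold over input. The 238 bases before the annotated gene start are shown because they overlap the peaks of both replicates. They are chr17:36836896-36837133 of GRCm38.p6 on the plus strand, as given by RefSeq, with the 194 bases inside both peaks in capitals.
Trim26: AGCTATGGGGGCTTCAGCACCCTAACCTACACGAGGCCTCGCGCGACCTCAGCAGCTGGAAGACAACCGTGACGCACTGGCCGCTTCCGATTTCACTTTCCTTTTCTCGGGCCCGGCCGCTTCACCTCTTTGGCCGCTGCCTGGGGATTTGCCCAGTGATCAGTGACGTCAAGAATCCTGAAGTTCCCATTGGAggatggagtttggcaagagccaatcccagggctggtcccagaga
This binding was measured in other cells and only places the peak.

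Il2ra and Rassf4 were also lower. Il2ra (chr2:11642807-11693193, plus strand) encodes the alpha chain of the IL-2 receptor. It was at 3760 and 3339 in wild-type and at 1648 and 1593 in Sirt7-/- pro-B cells, with a log2 fold change of -1.13 (SE 0.0896, adjusted p = 0.0128 in limma). The Sirt7-/- libraries were thus at less than 1 part in 2 of either wild-type library. From gene set tests the study names Il2ra among lineage-inappropriate genes that SIRT7 represses, which is opposite in direction to these values. Rassf4 (chr6:116633008-116673952, minus strand), of the Ras association domain family, was at 2734 and 2652 in wild-type and at 1564 and 1518 in Sirt7-/- pro-B cells, with a log2 fold change of -0.81 (SE 0.0802, adjusted p = 0.0394 in limma). With the 4 pro-B libraries alone neither Il2ra (adjusted p = 0.147 in limma) nor Rassf4 (adjusted p = 0.213 in limma) passed the test.

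Pcyt2, which encodes the enzyme that makes CDP-ethanolamine for phosphatidylethanolamine synthesis and lies next to Sirt7 (chr11:120610087-120617936, minus strand), was at 2665 and 2582 in wild-type and at 569 and 634 in Sirt7-/- pro-B cells. Its log2 fold change was -2.13 (SE 0.211, adjusted p = 0.0394 in limma). The zinc finger gene Zfp882 (chr8:71908608-71916354, plus strand) was at 349 and 413 in wild-type and at 56.0 and 52.6 in Sirt7-/- pro-B cells, with a log2 fold change of -2.78 (SE 0.178, adjusted p = 0.00522 in limma). For neither gene did the genotypes overlap, which held with lower Sirt7-/- values in 19.8% of all genes. With the 4 pro-B libraries alone Pcyt2 passed the test and Zfp882 did not (adjusted p = 0.103 in limma). With the replicate number as a block Pcyt2 did not pass (adjusted p = 0.066 in limma) and Zfp882 did (adjusted p = 0.0168 in limma). The call of Pcyt2 was also lost without Sirt7-/- replicate 2, with a log2 fold change of -2.20.

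Among the called genes, 3 have a near-identical copy or lack a matched position. Pagr1b (chr7:127001480-127016484, minus strand) was at 94.4 and 71.8 in wild-type pro-B cells and at 0 in both Sirt7-/- libraries, at least 27.7-fold lower against a floor of 3 counts per library. Pagr1b has a near-identical copy, Pagr1a, listed in 2 rows of the table, the larger of which was at 1841 and 4790 in wild-type and at 4822 and 3196 in Sirt7-/- pro-B cells, so that the split of reads between the copies is uncertain. AC107830.1 was at 1099 and 563 in wild-type and at 6.42 and 7.38 in Sirt7-/- pro-B cells. Both Pagr1b and AC107830.1 reached the 10 normalized counts of the filter in the wild-type libraries only, so their values are a description and no test is drawn from them. RP23-64J23.14 was at 202 and 194 in wild-type and at 48.6 and 41.5 in Sirt7-/- pro-B cells (log2 fold change -2.11, SE 0.184, adjusted p = 0.0202 in limma). With the 4 pro-B libraries alone RP23-64J23.14 did not pass the test (adjusted p = 0.238 in limma). AC107830.1 and RP23-64J23.14 are clone-based gene names without a matched position here.

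The called genes that were higher in Sirt7-/- pro-B cells were Zbtb18 and Coa7. Zbtb18 (chr1:177442351-177450764, plus strand) encodes a zinc finger transcriptional repressor and was at 5028 and 4724 in wild-type and at 10299 and 10560 in Sirt7-/- pro-B cells, with a log2 fold change of 1.10 (SE 0.0833, adjusted p = 0.011 in limma). Coa7 (chr4:108328140-108341544, plus strand), a gene for an assembly factor of cytochrome c oxidase, was at 115 and 77.4 in wild-type and at 463 and 435 in Sirt7-/- pro-B cells. Its log2 fold change was 2.24 (SE 0.228, adjusted p = 0.0419 in limma), and it was the only one of the 11 that edgeR did not call (adjusted p = 0.0548). Neither call held in limma with the 4 pro-B libraries alone (adjusted p = 0.0801 for Zbtb18 and 0.237 for Coa7) or without Sirt7-/- replicate 2 (adjusted p = 0.085 and 0.158).

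**Figure D3:**
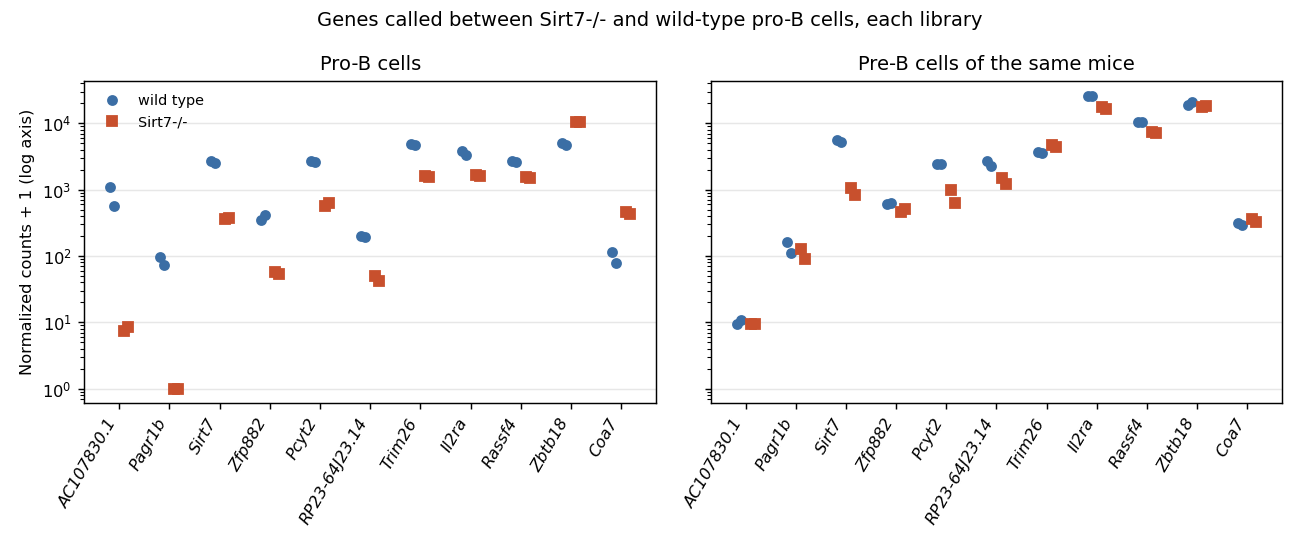
Normalized counts plus 1 (log axis) of the 11 called genes, 1 point per library, in pro-B cells (left) and in pre-B cells of the same mice (right). In pro-B cells the genotypes are apart for every gene shown, and in pre-B cells AC107830.1 lies at about the same low level in all 4 libraries and Trim26 lies higher in Sirt7-/- cells.

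In pre-B cells of the same mice some of the called genes kept their lower values in Sirt7-/- cells. Sirt7 was called there too (log2 fold change -2.53, adjusted p = 0.0092 in limma), and the log2 fold changes of Pcyt2, Rassf4 and RP23-64J23.14 were -1.61, -0.54 and -0.91, without a call (adjusted p = 0.0701, 0.0863 and 0.145 in limma). The difference between the Sirt7-/- effects at the 2 stages was called by limma for 1 gene of 16701 (0.00599%), Trim26. In pre-B cells Trim26 was at 3723 and 3531 in wild-type and at 4677 and 4434 in Sirt7-/- libraries, so that the direction was opposite, and the pre-B effect minus the pro-B effect was 1.93 on the log2 scale (SE 0.119, adjusted p = 0.0162 in limma). With each mouse as a block, since the same mouse gave a pro-B and a pre-B library, this difference did not pass the test (adjusted p = 0.212 in limma) and no gene was called (1235 genes at an unadjusted limma p under 0.05). Zbtb18 was at 19089 and 21249 in wild-type and at 17581 and 18125 in Sirt7-/- pre-B cells, with a difference of effects of -1.27 (adjusted p = 0.0519 in limma). AC107830.1 was at 8.36 and 9.84 in wild-type and at 8.53 and 8.43 in Sirt7-/- pre-B cells. Zfp882 was at 600 and 628 in wild-type and 453 and 510 in Sirt7-/- pre-B cells, without a call there (adjusted p = 0.433 in limma). Its difference of effects between the stages missed the threshold as well (adjusted p = 0.0557 in limma). Il2ra was far more abundant at this stage, at 25620 and 26038 in wild-type and at 17564 and 16329 in Sirt7-/- pre-B cells, and its lower level there did not pass the test (log2 fold change -0.61, adjusted p = 0.0863 in limma). The pre-B libraries are not independent of the pro-B libraries.

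The pre-B stage markers held the called gene Il2ra and a further gene called by DESeq2, Ikzf3, both lower in Sirt7-/- pro-B cells. Of all genes, limma called 0.0659% in either direction and DESeq2 called 0.502% lower. Of the 7 tested genes of the list, 4 were lower at an unadjusted limma p under 0.05 (Il2ra, Ikzf3, Cecr2 and Irf4). None was higher at that level, and 3.8% of all genes were lower. The study itself names Ikzf3 and Irf4 as regulated in these pro-B cells, and Il2ra from the same experiment. The list was chosen with earlier results of these data known, so its share and median are no independent support. The median log2 fold change of the list was -0.41 over both libraries, against 0.00 for all genes, and -0.38 without Sirt7-/- replicate 2. Ikzf3 (chr11:98464902-98546031, minus strand), an Ikaros family factor that rises as the pre-B cell receptor signals, was at 16159 and 13868 in wild-type and at 9970 and 10511 in Sirt7-/- pro-B cells. Its log2 fold change was -0.55 (SE 0.092), past the threshold in DESeq2 (adjusted p = 0.000947) and not in limma (adjusted p = 0.274). Irf4, which promotes light chain rearrangement, was at 22107 and 23073 in wild-type and at 17582 and 18056 in Sirt7-/- pro-B cells, with a log2 fold change of -0.34 (adjusted p = 0.661 in limma, DESeq2 adjusted p = 0.222). Cecr2 was at 47595 and 41910 and at 34358 and 32879 (log2 fold change -0.41, DESeq2 adjusted p = 0.0631). The most abundant gene of the list, Igkc, followed the plasma cell markers instead and was at 234972, 550267, 439264 and 387073 in wild-type replicates 1 and 2 and Sirt7-/- replicates 1 and 2. In the pre-B cells of the same mice Ikzf3 was at 43033 and 45594 in wild-type and at 39544 and 38940 in Sirt7-/- libraries, and Irf4 was at 34036 and 40383 and at 28185 and 28776.

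Of 25 transcription factors of the B lineage, limma called none. DESeq2 called 3 lower (Ikzf3, Spib and Ikzf1) and none higher, where 0.502% of all genes were lower. At an unadjusted limma p under 0.05, 6 were lower (Ikzf3, Spib, Ikzf1, Irf4, Tcf12 and Bach2), where 3.8% of all genes were, and none was higher. The median of the list was -0.01, and -0.03 without Sirt7-/- replicate 2. Ikzf3 and Irf4 are again genes that the study names from these libraries. Spib, an Ets family factor, was at 50682 and 52162 in wild-type and at 39588 and 38557 in Sirt7-/- pro-B cells (log2 fold change -0.40, DESeq2 adjusted p = 0.0204). Ikzf1 (Ikaros) was at 19992 and 19773 and at 16469 and 15975 (log2 fold change -0.29, DESeq2 adjusted p = 0.0284). In both genes each Sirt7-/- library lay below each wild-type library, as in 19.8% of all genes. Pax5 transcripts were at 92893 and 83828 in wild-type and at 92895 and 82788 in Sirt7-/- pro-B cells, with a log2 fold change of -0.01 (SE 0.109, adjusted p = 0.998 in limma). Ebf1, which acts upstream of Pax5, was likewise at 45427 and 42520 and at 42042 and 46313.

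Of 20 tested genes of V(D)J recombination and end joining, limma called none and DESeq2 called 1, Polm, lower (0.502% of all genes), and Polm and Lig4 were lower at an unadjusted limma p under 0.05 (3.8% of all genes). The genotypes did not overlap in 5 genes with higher and 8 with lower Sirt7-/- values, against 20% and 19.8% of all genes. The median log2 fold change was -0.07, and -0.15 without Sirt7-/- replicate 2. Polm, the polymerase mu of end joining, was at 9837 and 7326 in wild-type and at 5372 and 4713 in Sirt7-/- pro-B cells (log2 fold change -0.75, DESeq2 adjusted p = 0.0105). Lig4, the ligase that seals the joined ends, was at 4587 and 4867 and at 3558 and 3681 (log2 fold change -0.38, DESeq2 adjusted p = 0.0828).

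Genes of the pre-B cell receptor and its signalling gave no call among 20 tested with limma or DESeq2. At an unadjusted limma p under 0.05, Vpreb3 was higher (2.17% of all genes) and Syk and Ptpn6 were lower (3.8%), and the median was 0.08 (1 higher, 1 lower and 0.09 without Sirt7-/- replicate 2, against 1.25% and 2.81% of all genes). Vpreb3, which binds nascent light chains, was at 37213 and 40626 in wild-type and at 47778 and 44270 in Sirt7-/- pro-B cells. Syk, the kinase downstream of the receptor, was at 51798 and 51435 and at 44545 and 46101. Vpreb2, a surrogate light chain gene, was at 2815 and 2692 in wild-type and at 3958 and 3600 in Sirt7-/- pro-B cells, higher in both without passing the test (log2 fold change 0.46, SE 0.528, adjusted p = 0.979 in limma). The pooled error of Vpreb2 includes the Sirt7-/- pre-B libraries, which were at 123 and 458, and with the 4 pro-B libraries alone the SE was 0.0922 and the adjusted p = 0.492 in limma. Its copy Vpreb1 was at 15908 and 17771 and at 24087 and 20812, and reads of the copies may be split.

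Of 24 genes of the IL-7 and IL-2 receptors and the STAT5 pathway, limma and DESeq2 called only Il2ra. Over all genes they called 0.0659% and 0.763%. At an unadjusted limma p under 0.05 the STAT5 target Cish was higher (2.17% of all genes) and Il2ra and Socs1, a feedback inhibitor, were lower (3.8%), and the median was 0.04. Without Sirt7-/- replicate 2 no gene of the list was higher and 2 were lower (2.81% of all genes), with a median of 0.02. Cish was at 374 and 269 in wild-type and at 472 and 480 in Sirt7-/- pro-B cells. Il7r, the receptor chain that binds IL-7, was at 19404 and 22206 in wild-type and at 16139 and 15516 in Sirt7-/- pro-B cells, and the log2 fold change of -0.39 (SE 0.178) did not pass the test (adjusted p = 0.861 in limma). The study names Thy1 for lineage and Grb7 and Myc for cell cycle from gene set tests, which its figures show for pre-B cells. As single genes in pro-B cells they were not called. Thy1 was at 886 and 1007 in wild-type and at 1422 and 1357 in Sirt7-/- pro-B cells (adjusted p = 0.983 in limma). Grb7 was at 2362 and 2607 and at 3766 and 4298 (adjusted p = 0.943 in limma). Here too the Sirt7-/- pre-B libraries in the fit lay far apart, at 43.7 and 323 for Thy1 and at 214 and 978 for Grb7, and with the 4 pro-B libraries alone the adjusted p = 0.512 and 0.396 in limma. Myc was at 7753 and 5040 and at 5481 and 7340, with the genotypes overlapping. In pre-B cells the log2 fold changes of Thy1, Grb7 and Myc were 2.69, 1.73 and 1.46, without a call (adjusted p = 0.226, 0.28 and 0.162 in limma).

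Near Sirt7, DESeq2 called genes on one side of the deletion and Rfng alone on the other. Of the 45 tested genes that start within 500 kb of Sirt7, itself included, limma called 2 (Sirt7 and Pcyt2), against 0.0659% of all genes. DESeq2 called 6, 3 higher and 3 lower with the deleted Sirt7 among them, against 0.763% of all genes. The higher genes lie within a stretch on one side of Sirt7. Fam195b (Mcrip1) was at 4153 and 4101 in wild-type and at 6833 and 8151 in Sirt7-/- pro-B cells (log2 fold change 0.85, SE 0.117, DESeq2 adjusted p = 1.57e-06). P4hb, a protein disulfide isomerase of the endoplasmic reticulum, was at 8270 and 9014 and at 14736 and 20594 (log2 fold change 1.01, DESeq2 adjusted p = 0.00183). Arhgdia was at 54242 and 58099 and at 85816 and 114613 (log2 fold change 0.82, DESeq2 adjusted p = 0.00761). Rfng, a glycosyltransferase that modifies Notch receptors, was lower, at 3555 and 3501 in wild-type and at 1035 and 968 in Sirt7-/- pro-B cells. Its log2 fold change was -1.82 (SE 0.518, adjusted p = 0.678 in limma, DESeq2 adjusted p = 0.0133). In pre-B cells Rfng split within the genotype, at 4036 and 3255 in wild-type and at 4052 and 1109 in Sirt7-/- libraries. The genotypes differ at the deleted locus itself, and the part of the deletion or of linked sequence in these values was not tested.

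**Figure D4:**
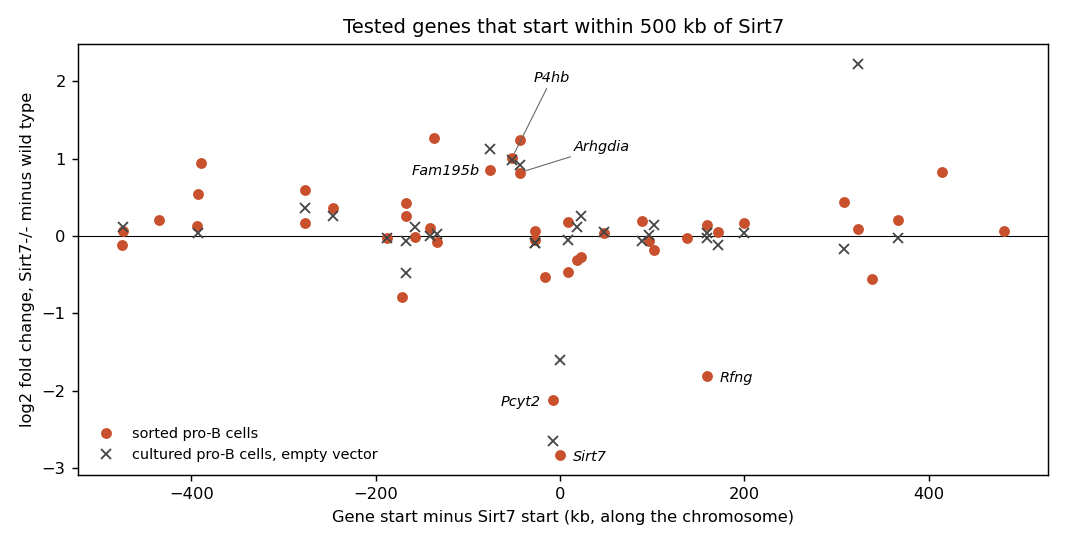
Log2 fold change of Sirt7-/- minus wild type (vertical axis) for tested genes by the distance of their start from the Sirt7 start in kb (horizontal axis), in sorted pro-B cells (circles) and in cultured pro-B cells with empty vector (crosses). The named genes were called by DESeq2 in sorted pro-B cells, and in cultured cells Fam195b, P4hb and Arhgdia lie above 0, Pcyt2 below 0 and Rfng near 0.

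The interferon-stimulated genes Oas1a, Oas2 and Ifi27l2a were higher in Sirt7-/- pro-B cells in DESeq2, at low levels. Interferons induce these antiviral genes through the STAT and IRF factors that bind the interferon-stimulated response element (ISRE). Of 28 tested, limma called none, DESeq2 called these 3 higher (0.261% of all genes) and none lower, and 9 were higher and none lower at an unadjusted limma p under 0.05, where 2.17% of all genes were higher. The median log2 fold change was 0.39, and 24 of the 28 values were above 0, against 50.2% over all genes. Without Sirt7-/- replicate 2 the median was 0.34, with 7 genes higher and 1 lower at that p, against 1.25% and 2.81% of all genes. Oas1a (chr5:120896256-120907521, minus strand), a sensor of double-stranded RNA, was at 213 and 176 in wild-type and at 485 and 560 in Sirt7-/- pro-B cells (log2 fold change 1.42, SE 0.205, adjusted p = 0.215 in limma, DESeq2 adjusted p = 1.66e-05). Oas2, of the same family, was at 99.1 and 101 and at 320 and 483 (log2 fold change 1.97, DESeq2 adjusted p = 9.36e-05). Ifi27l2a was at 355 and 223 and at 726 and 625 (log2 fold change 1.26, DESeq2 adjusted p = 0.00666). In each of these genes both Sirt7-/- libraries lay above both wild-type libraries, as in 20% of all genes. Oas3 was at 205 and 152 in wild-type and at 358 and 405 in Sirt7-/- pro-B cells, without a call (DESeq2 adjusted p = 0.078). Irf9, the DNA-binding partner of the STATs, was at 2145 and 1886 and at 2546 and 2819 (log2 fold change 0.41, DESeq2 adjusted p = 0.103). The same mice also had higher Oas1a in pre-B cells, at 53.3 and 49.2 in wild-type and at 217 and 224 in Sirt7-/- libraries, and higher Oas2, at 97.2 and 59.0 and at 344 and 491.

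The promoters of Oas1a and Oas3 are shown because they hold the letters of the ISRE. They are the 250 bases before the RefSeq start, on the minus strand, from the windows chr5:120907476-120907775 and chr5:120777610-120777909 of GRCm38.p6, with GAAANNGAAA in capitals, overlapping matches merged.
Oas1a: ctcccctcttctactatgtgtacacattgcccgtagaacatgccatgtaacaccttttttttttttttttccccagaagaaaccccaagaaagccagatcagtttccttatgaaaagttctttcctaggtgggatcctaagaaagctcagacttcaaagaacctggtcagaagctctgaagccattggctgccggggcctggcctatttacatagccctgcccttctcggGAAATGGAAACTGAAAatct
Oas3: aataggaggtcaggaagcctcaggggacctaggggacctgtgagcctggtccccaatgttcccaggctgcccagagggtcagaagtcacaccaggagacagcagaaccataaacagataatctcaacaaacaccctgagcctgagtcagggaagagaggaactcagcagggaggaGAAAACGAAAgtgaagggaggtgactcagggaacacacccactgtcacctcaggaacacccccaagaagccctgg
GAAANNGAAA, searched on both strands, occurred in 3.44% of the 32851 RefSeq promoter windows, which also hold a short stretch after the start, in 3.78% of the 10389 tested genes with a promoter entry, and in 14 of the 21 tested interferon list genes with an entry (66.7%). Of the 5 genes with an entry that were higher at an unadjusted limma p under 0.05, the letters were found in Oas1a and Oas3 and not in Irf9, Irf7 or Ifi44. A match is a description of the sequence and not of binding.

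No gene of growth or housekeeping lists was called. No cell cycle gene of 28 was past an unadjusted limma p of 0.05 in either direction, with a list median of -0.01 (-0.06 without Sirt7-/- replicate 2). Of 29 genes of ribosomal RNA synthesis and ribosome assembly, the process in which SIRT7 is known to act, none was past that p, and the list median was 0.09 (0.04 without that library). In this list 25 values were above 0, and in 14 genes both Sirt7-/- libraries lay above both wild-type libraries (20% over all genes), with none the other way. Of 86 genes of cytosolic ribosomal proteins, 4 were higher at that p (Rpl35a, Rpl30, Rpl3 and Rpl5; 2.17% of all genes were) and none lower, with a median of 0.12 that was 0.06 in Sirt7-/- replicate 1 and 0.17 in replicate 2, and 1 was higher without replicate 2. Of these 86, 82 values were above 0 (50.2% over all genes), and the Sirt7-/- libraries lay above the wild-type libraries in 48 and below them in none. Rpl35a was at 8644 and 8855 in wild-type and at 10416 and 10901 in Sirt7-/- pro-B cells. Of 76 mitochondrial ribosomal proteins and 80 respiratory chain genes, 60 and 61 values were above 0 (50.2% over all genes). The Sirt7-/- libraries lay above the wild-type libraries in 26 genes of each list and below them in 4 and 6 (20% and 19.8% over all genes). At an unadjusted limma p under 0.05, 3 each were higher (2.17% of all genes were) and none lower, with medians of 0.06 and 0.07. Without Sirt7-/- replicate 2, 1 and 2 of them were higher, with medians of 0.05 and 0.03. None of these genes was called by limma or DESeq2.

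The remaining lists gave no call by limma or DESeq2. Over all genes, 2.17% were higher and 3.8% lower at an unadjusted limma p under 0.05, and 1.25% and 2.81% without Sirt7-/- replicate 2. At an unadjusted limma p under 0.05, Herpud1 was the only one lower of 19 genes of the unfolded protein response (list median 0.15), Crebbp the only one lower of 15 acetyltransferases and class I deacetylases (-0.06), and no gene moved among 20 of autophagy (0.06) or 19 of the BCL2 family and the p53 pathway (0.05). Of 18 homing and adhesion receptors, Itgal and S1pr3 were higher and Itga4 lower (0.04). Itga4, the integrin chain that binds VCAM-1 on stroma, was at 31405 and 31974 in wild-type and at 25174 and 25126 in Sirt7-/- pro-B cells (DESeq2 adjusted p = 0.0839). Of 11 early progenitor markers Meis1 was lower (0.19), of 16 immature and mature B cell markers Ciita was lower (-0.04), of 12 plasma cell markers Sdc1 was lower (0.15) and of 5 sex genes Uty was higher (-0.11). Of 22 T cell markers Cd3g was lower and none higher (-0.21), at 26.2 and 35.4 in wild-type and 3.67 and 11.1 in Sirt7-/- pro-B cells. A further marker past that p, Bcl11b, at 27.1 and 32.6 in wild-type and 7.34 and 7.38 in Sirt7-/- pro-B cells, was kept through the wild-type libraries only and had to differ. Dusp5 was lower among 20 immediate early and stress genes (0.77) and Itga2b among 13 erythroid and megakaryocyte markers (0.06). No NK cell (0.64), myeloid (-0.87) or stroma marker (-0.74) was past that p, and in the stress, NK and myeloid lists the median rested on Sirt7-/- replicate 2, with 0.00, -0.13 and -0.12 without it. The medians of the erythroid and megakaryocyte list and of the immature and mature B cell list changed sign without that library, to -0.53 and 0.17. The other medians without it were 0.09 for the unfolded protein response, -0.09 for acetyltransferases and deacetylases, 0.04 for autophagy, 0.12 for the BCL2 family and the p53 pathway and 0.03 for homing receptors. They were 0.28 for early progenitor, 0.28 for plasma cell, -0.29 for T cell and -0.46 for stroma markers and -0.13 for sex genes. Without it 1 homing receptor was higher and 2 were lower, 1 T cell marker and no erythroid or plasma cell marker was lower, and 1 gene each of the early progenitor and the immature and mature B cell lists was higher.

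**Figure D5:**
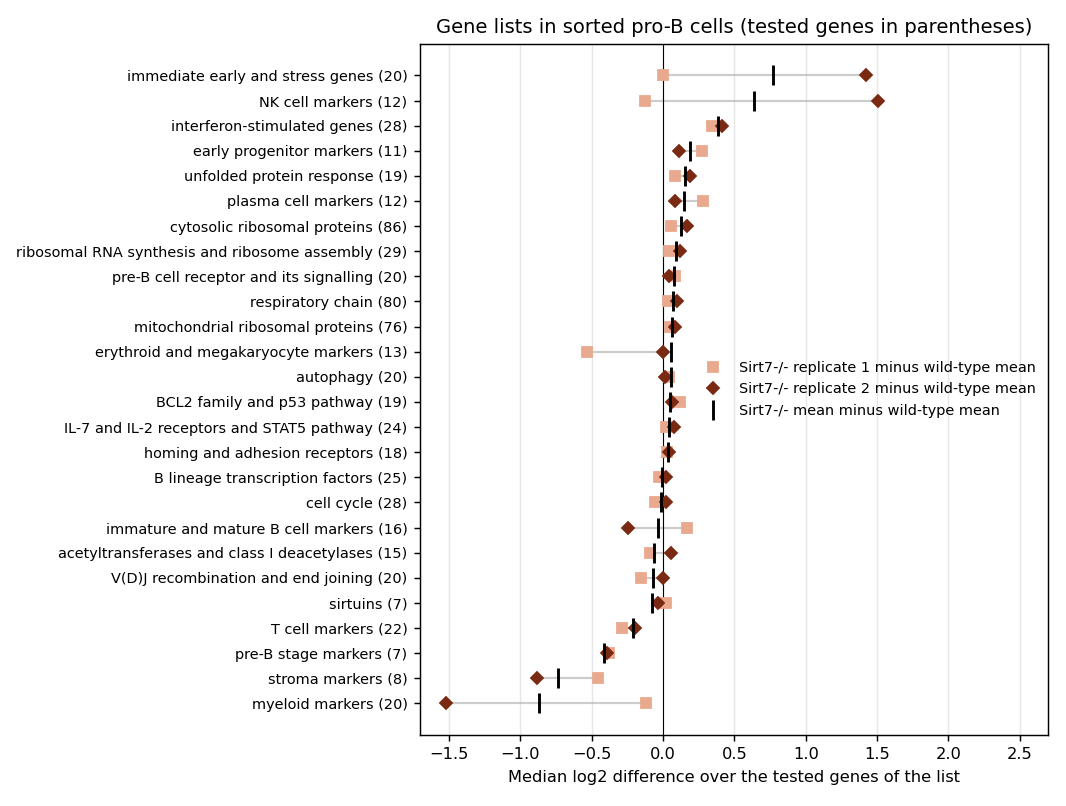
Median log2 difference of Sirt7-/- from the wild-type mean over the tested genes of each list (horizontal axis), for Sirt7-/- replicate 1 (squares), replicate 2 (diamonds) and their mean (bars). The Sirt7-/- libraries lie close together for pre-B stage markers (-0.38 and -0.39) and for interferon-stimulated genes (0.34 and 0.41), and far apart for immediate early and stress genes, NK cell markers and myeloid markers.

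Further genes were picked after their values were seen, as the abundant genes called by DESeq2 and not by limma whose genotypes did not overlap. Zbtb4, which encodes a zinc finger protein that binds methylated DNA, was at 1794 and 1907 in wild-type and at 526 and 445 in Sirt7-/- pro-B cells (log2 fold change -1.93, DESeq2 adjusted p = 6.68e-12). Adam19, a membrane metalloprotease, was at 7134 and 6316 and at 3809 and 3272 (log2 fold change -0.93, DESeq2 adjusted p = 3.1e-07). Fcrla, an Fc receptor-like protein of B cells, was at 14903 and 12790 and at 8605 and 8174 (log2 fold change -0.72, DESeq2 adjusted p = 0.000163). Adam19 and Fcrla were several times more abundant in wild-type pre-B cells, at 49967 and 52075 and at 46086 and 43853. Ube3a, an E3 ubiquitin ligase, was at 2509 and 3049 in wild-type and at 1057 and 1293 in Sirt7-/- pro-B cells (DESeq2 adjusted p = 0.000189). Rrm2b, the p53-induced subunit of ribonucleotide reductase, was at 4768 and 4775 and at 3419 and 3532 (DESeq2 adjusted p = 0.000187). Among the higher genes, Bfsp2, known as a lens filament gene, was at 2060 and 2381 in wild-type and at 5039 and 4418 in Sirt7-/- pro-B cells (log2 fold change 1.09, DESeq2 adjusted p = 2.3e-05). Lman2l, a lectin of the secretory pathway, was at 2162 and 1940 and at 3516 and 3834 (DESeq2 adjusted p = 3.19e-05).

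A separate table of the series holds pro-B cells expanded in culture from Sirt7-/- and wild-type bone marrow and transduced with an empty vector, 2 libraries each. There limma called 76 of 13651 genes (0.557%), 56 higher and 20 lower in Sirt7-/- cells, and 288 with the replicate number as a block. The count fell to 4 without Sirt7-/- replicate 1, 3 without Sirt7-/- replicate 2 and 17 without wild-type replicate 2, and to 50 with a filter of 100 normalized counts and 44 without a filter. The study's replicates were made on different days, and whether a number marks the same day in both genotypes is not stated. Of the 11 genes called in sorted pro-B cells, 8 were tested in cultured cells and 2 were called, Sirt7 (log2 fold change -1.60, adjusted p = 0.0251 in limma) and Pcyt2 (log2 fold change -2.66, adjusted p = 0.00781 in limma). Il2ra was at 1587 and 1050 in wild-type and at 538 and 416 in Sirt7-/- cultured cells, in the same direction without a call (log2 fold change -1.45, adjusted p = 0.266 in limma, and 0.153 with the block). Trim26 was at 1771 and 1896 and at 1844 and 1924, with a log2 fold change of 0.04. The log2 fold changes of Zfp882, Coa7 and Zbtb18 in culture were -0.04 (SE 0.362), 0.08 (SE 0.178) and 0.18 (SE 0.198), against -2.78, 2.24 and 1.10 in sorted cells, and that of Rassf4 was -0.23 (SE 0.343). Il7r was called lower in culture, at 10843 and 10445 in wild-type and at 5361 and 6155 in Sirt7-/- cells (adjusted p = 0.0234 in limma). Bfsp2 was called higher there, at 106 and 167 and at 528 and 686 (adjusted p = 0.013 in limma).

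The neighbours of Sirt7 on the one side were called in culture too: the log2 fold changes were 1.13 for Fam195b (adjusted p = 0.0128 in limma), 0.99 for P4hb (adjusted p = 0.0459 in limma) and 0.92 for Arhgdia (adjusted p = 0.0172 in limma), against -0.03 for Rfng. For interferon-stimulated genes the culture median over 26 tested genes was -0.64 on the log2 scale, which rested on wild-type replicate 2: the median was 0.04 against wild-type replicate 1 alone and -1.29 against wild-type replicate 2 alone. Of these genes 7 were lower and none higher at an unadjusted limma p under 0.05, where 3.92% of all genes were lower. Oas1a was at 473 and 1188 in wild-type and at 462 and 498 in Sirt7-/- cultured cells, and Oas3 was at 12.2 and 138 and at 10.2 and 12.1, so that wild-type replicate 2 stood above the other three libraries in both. The 7 pre-B stage markers, with a median of -0.41 in sorted cells, had one of 0.23 in culture, 0.07 against wild-type replicate 1 alone and 0.27 against wild-type replicate 2 alone. Ikzf3 in culture was at 9033 and 7244 in wild-type and at 9527 and 9383 in Sirt7-/- cells, and Irf4 was at 5608 and 5600 and at 6627 and 7851, so that both lay higher in Sirt7-/- cells. The 2 tables were normalized separately and differ in culture and vector, and the difference between their effects was not tested.

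Pax5 peaks present in both ChIP–seq replicates within 1 kb of the gene start were found at 3920 of the 16069 tested genes with a position (24.4%). They were found at 22 of the 74 genes lower in DESeq2 with a position (29.7%), at 9 of the 41 higher genes (22.0%) and at 4 of the 9 genes called by limma (44.4%). These were Trim26, Zfp882, Zbtb18 and Pcyt2, and the peaks at the Pcyt2 start had an enrichment of 10.4-fold and 12.1-fold over input. At the Ikzf3 start the enrichment was 3.23-fold and 5.59-fold. The shares are counts of annotated positions and no test was made between them.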

How the data were processed

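Each sorted library was made from 1 mouse at 1 stage. Salmon with mm10 transcripts and GC-bias correction, then Tximeta, gave the authors their gene estimates, which DESeq2 scaled by its median-of-ratios size factors. The deposited signal is this normalized count per gene. Dividing the values of a sorted library by its own factor (0.917 to 1.09) gave whole reads for 100% of genes, within 0.01 reads. The cultured table had no such step and was used as deposited. In the ChIP–seq experiment the authors called peaks over input with MACS2, and the deposited lists give a fold enrichment (a ratio) and −log10 of q per peak, 10646 and 11830 peaks in replicates 1 and 2.

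The genes kept (10 or more normalized counts in 2 or more pro-B libraries) were tested on log2(normalized count + 1) by limma 3.58.1 (R 4.3.3) over all 8 sorted libraries and 4 groups, with a trend of the variance and Benjamini-Hochberg adjustment, at an adjusted p under 0.05. EdgeR 4.0.16 (quasi-likelihood) and DESeq2 1.42.0 on recovered reads, other pseudocounts, filters and scalings, and leaving out each library were alternatives. The scripts were tested on simulated data. Genes named were drawn from Sirt7, called genes, genes the study names, up to 4 members of each list with the smallest p and the most abundant marker of each marker list, and genes within 500 kb of Sirt7, and others are marked. The other genes given as checks of stage or of a library were chosen after their values were seen. The comparison, members and lists were chosen with earlier results of these data known. Of the tested genes, 16560 had a symbol that occurs once and 16069 a GENCODE M21 position (GRCm38, the build of mm10). One of the sorting antigens is not reported here. Promoter windows were those of RefSeq for GRCm38.p6.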

Additional observations from a re-analysis of the deposited data

Results flagged for a closer look

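By limma without a block for the mouse, Trim26 differed in its response to the loss of Sirt7 between the stages of B cell development. It was lower in Sirt7-/- pro-B cells, its values were higher in Sirt7-/- pre-B cells of the same mice (log2 fold change 0.33, adjusted p = 0.182 in limma), and the pre-B effect minus the pro-B effect was 1.93 on the log2 scale (limma interaction, adjusted p = 0.0162). Leaving out any 1 of the 4 pro-B libraries kept the size of this difference, between 1.92 and 1.94, and gave adjusted p-values of 0.0763 to 0.215 in limma, and leaving out wild-type pre-B replicate 1 gave 0.0507. With each mouse as a block it did not pass either (adjusted p = 0.212 in limma). The 2 libraries of each group were close to each other at both stages. No other gene passed the same test with limma at an adjusted p under 0.05, where 920 genes had an unadjusted p under 0.05 and DESeq2 called 103.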

How the results depend on the processing

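Sirt7-/- against wild-type pro-B cells gave 11 called genes, and between 10 and 12 with edgeR, another scaling, pseudocount, filter or no trend of the variance, of which 6 of the 12 without the trend were among the 11. DESeq2 called 120, limma with the 4 pro-B libraries alone 4, and, in alternatives added after the data were seen, edgeR with those libraries 5 and DESeq2 with them 254. Of the 11 genes, 3 were among the 4 and 3 among the 5, and 8 were lost in each. Leaving out 1 library gave between 0 and 13 calls: 0 without Sirt7-/- replicate 1 (1051 genes at an unadjusted limma p under 0.05), 0 without wild-type replicate 1 (654), 9 without Sirt7-/- replicate 2 and 13 without wild-type replicate 2. In each of these fits a lone library was assumed to vary like the other groups. None of the 11 genes reversed in any alternative that tested it. The genotypes did not overlap in any of the 11, so leaving out a library could not reverse them. For Pagr1b and AC107830.1 the filter had also fixed the direction. The log2 fold change of Myc, 0.02, was between -0.29 and 0.33 when a library was left out and -0.00065 in DESeq2 with the 4 libraries, and that of Pax5, -0.01, was between -0.092 and 0.074. The difference between stages was called for 1 gene, for 103 with DESeq2, for 12 without the trend and for 0 to 15 with a library left out, 0 without Sirt7-/- or wild-type pro-B replicate 1 (818 and 661 genes at an unadjusted limma p under 0.05). In cultured cells 76 genes were called, 50 with a filter of 100 normalized counts, 44 without a filter and 3 to 60 with a library left out. The cause of these changes was not tested. Between the genotypes the labels give libraries with the same replicate number only that number, and the study made its replicates on different days without tying a day to a number, with correlations of their deviations from the group means of 0.06 in sorted pro-B, 0.04 in sorted pre-B and 0.28 in cultured cells. Pro-B and pre-B libraries of 1 genotype and number came from 1 mouse, with correlations of 0.10 in wild type and 0.19 in Sirt7-/-. With the replicate number as a block, 15 genes were called in sorted pro-B cells, without Pcyt2 (adjusted p = 0.066 in limma), 1 for the difference between stages and 288 in cultured cells. With the mouse as a block, added after the data were seen, 0 genes were called for the difference between stages (1235 at an unadjusted limma p under 0.05), Trim26 included (adjusted p = 0.212 in limma). Each group holds 2 mice, and the pro-B libraries hold at least 54130851 reads each.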
